A study of Mus musculus with 12 samples.

Results

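The comparison set 2 arrays of neuronal cultures given citalopram against 2 arrays of cultures given duloxetine, 4 of the 12 arrays in the series. All 4 were taken by their labelled drug. Every probe set that names exactly 1 gene could enter, with the probe set of highest mean kept per gene, which gave 22180 genes. Of these, 17467 reached the filter on low values, a mean log2 level of 5.72, and were tested. The cultures were primary neuronal cultures from the brains of embryonic ICR (CD-1) mice, an outbred stock. They were grown in Neurobasal medium with B27, a serum-free supplement. Citalopram was used at 10 µM and duloxetine at 0.1 µM, each for 48 h from day in vitro 3 to day in vitro 5. The doses differ 100-fold, so the drug and its dose cannot be told apart in any value below. Control cultures (2 arrays) were harvested at the same age, and no source used here says what was added to them. Amitriptyline and imipramine (5 µM each) and mirtazapine (50 µM), with 2 arrays each, entered the fit for their share of the spread. The labels do not name the brain region, or say whether the 2 replicates of a group came from separate cultures or animals. P-values therefore measure only the spread between these samples, and 2 arrays a group limit the precision.

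Citalopram is a selective serotonin reuptake inhibitor: it blocks the serotonin transporter, the product of Slc6a4. Duloxetine blocks both that transporter and the noradrenaline transporter, the product of Slc6a2. The cell bodies of serotonin and noradrenaline neurons lie in the brainstem, and other brain regions receive their axons. Cultures of embryonic brain also hold dividing progenitors, and they form astrocytes and oligodendrocyte precursors as they age.

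Values are log2 levels as deposited, so a difference of 1 is a 2-fold change in signal. Of the neuron markers, 18 of 18 passed the filter. So did 17467 of all 22180 genes and 16 of 17 measured microglia and macrophage markers, so this count does not identify the cells. Tubb3, the neuronal tubulin, lay at 12.51 and 12.54 on the citalopram arrays and at 12.5 and 12.47 on the duloxetine arrays. The citalopram replicates resembled each other more than the duloxetine replicates did. Across the tested genes, the SD of the difference between replicates was 0.131 for citalopram (r = 0.9968 across genes) and 0.347 for duloxetine (r = 0.9784). Duloxetine replicate 2 stood apart: its slope against the mean of the remaining 11 was 0.923, that of mirtazapine replicate 2 was 0.908, where the other 10 arrays lay between 0.997 and 1.029. Bright genes were dimmer and dim genes brighter on it. With the genes divided by mean level into 4 equal groups, the median difference in the dimmest group (citalopram minus duloxetine) was 0.005 against duloxetine replicate 1 and −0.265 against replicate 2. In the brightest group it was −0.015 and 0.105. For this reason the median against each duloxetine array alone is given beside that of a list.

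Only 2 genes passed the test, both higher under citalopram: Ptgs2 and Ier3, 0.0115% of the 17467 tested (limma, Benjamini-Hochberg adjusted p under 0.05). No gene passed as lower. At an unadjusted p under 0.05 there were 1177 genes, 652 higher (3.73%) and 525 lower (3.01%). Both citalopram arrays lay above both duloxetine arrays for 2869 genes (16.4%) and below both for 2633 (15.1%). The 95% interval of the median gene reached 0.282 log2 units to either side. An exact permutation test of 2 arrays against 2 cannot give a two-sided p below 0.333, so the spread was pooled over all 6 groups. Pooling takes the spread of a gene as equal in all groups. Yet the SD of the replicate difference was 0.347 for duloxetine and 0.291 for mirtazapine. It was 0.131 for citalopram, 0.163 for amitriptyline, 0.16 for imipramine and 0.18 for control. The intervals and p-values do not allow for this.

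Ptgs2 encodes the inducible cyclooxygenase, which makes the precursor of the prostaglandins. It read 9.84 and 9.99 under citalopram, 7.5 and 7.16 under duloxetine, and 7.45 and 8.11 in control. The citalopram arrays were the high ones, and neither the duloxetine nor the control arrays overlapped them. The means were 9.915 ± 0.11 and 7.33 ± 0.24 (SD, n = 2 each), a 6-fold difference (log2 difference 2.585 ± 0.252 SE, 95% interval 2.022 to 3.148, limma adjusted p = 0.0141). Amitriptyline, imipramine and mirtazapine arrays lay between 9.26 and 10.36, with the citalopram arrays. Duloxetine was the only drug with an array in the control range: replicate 1 lay within it and replicate 2 below it.

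Ier3 is an immediate early gene whose product modulates ERK signalling and cell survival. Its levels were 9.15 and 9.19 under citalopram against 8.34 and 8.21 under duloxetine, with control at 8.43 and 8.46. The groups did not overlap, and both duloxetine arrays lay below both control arrays. Mean levels were 9.17 ± 0.03 and 8.275 ± 0.09 (SD, n = 2 each), a 1.86-fold difference (log2 difference 0.895 ± 0.089 SE, 95% interval 0.697 to 1.093, limma adjusted p = 0.0141). The other 3 drugs read 9.11 to 9.47.

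Both calls depended on which arrays entered the fit, also on arrays outside the contrast, which bear only on its pooled spread. The number of genes called was 0 without duloxetine replicate 2, without either citalopram array and without either amitriptyline array. It was 442 (269 higher and 173 lower, Ptgs2 and Ier3 among the higher) without duloxetine replicate 1, when the lone remaining duloxetine array is the one that stands apart. The size of the Ptgs2 difference stayed between 2.415 and 2.755 over 21 alternatives, and that of Ier3 between 0.819 and 0.96. Many of these, such as a change of filter, variance prior or arrays outside the contrast, could not move the difference of either gene. Their adjusted p ranged from 0.00469 to 0.422 for Ptgs2 and from 0.00469 to 0.856 for Ier3.

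**Figure D1:**
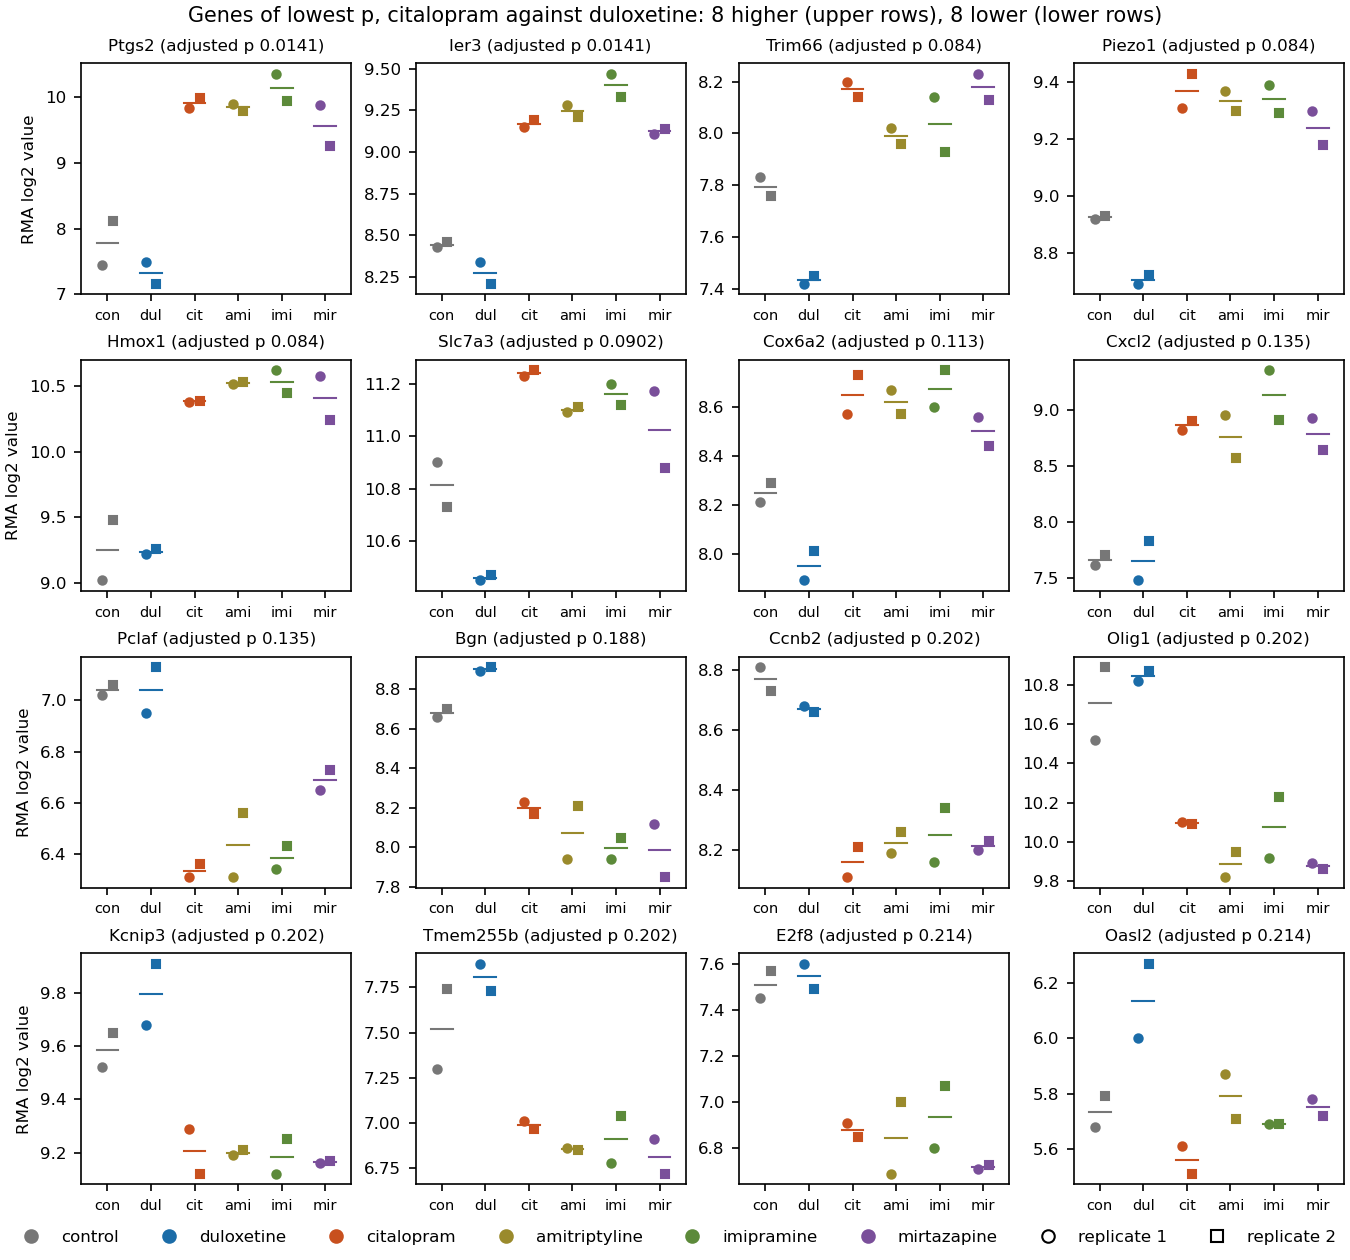
Log2 level (vertical axis, its own scale in each panel) on each of the 12 arrays, by group, for the 8 genes of lowest p among those higher and the 8 among those lower under citalopram than duloxetine; bars are group means, circles replicate 1 and squares replicate 2. Ptgs2 and Ier3 passed the test; in all 16 panels the 2 citalopram arrays lie on 1 side of the 2 duloxetine arrays, as a choice by lowest p makes likely.

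The 250 bases before the start of each of these 2 genes are printed because they are the only called genes (RefSeq, GRCm38.p6, strand of the gene, 5′ to 3′). The Ptgs2 window is chr1:150099781-150100030 on the plus strand, and that of Ier3 is chr17:35821463-35821712 on the plus strand. Capitals mark matches, on either strand, to the CRE TGACGTCA, its shorter core TGACG, the CCAAT box and the cell cycle element CHR (TTTGAA); the full CRE holds the core on both strands.
Ptgs2: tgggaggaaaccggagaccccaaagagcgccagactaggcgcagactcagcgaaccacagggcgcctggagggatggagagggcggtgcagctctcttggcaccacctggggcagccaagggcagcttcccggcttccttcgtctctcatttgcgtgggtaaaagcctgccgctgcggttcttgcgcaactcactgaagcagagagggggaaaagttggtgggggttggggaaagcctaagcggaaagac
Ier3: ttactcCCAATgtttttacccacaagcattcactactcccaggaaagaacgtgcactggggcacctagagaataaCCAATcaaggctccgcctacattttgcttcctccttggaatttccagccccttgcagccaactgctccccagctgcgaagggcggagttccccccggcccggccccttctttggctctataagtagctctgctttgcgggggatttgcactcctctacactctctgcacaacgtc
In Ier3 the capitals are CCAAT boxes that begin 244 and 175 bases before the start. In the Ptgs2 window no match to these 4 motifs was found, and bases outside the window were not searched. A CCAAT box was present in 38.8% of the 13480 tested genes that had such a window.

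Behind Ptgs2 and Ier3, the genes of lowest p on the higher side did not pass the test. Trim66, a chromatin reader, read 8.2 and 8.14 under citalopram, 7.42 and 7.45 under duloxetine and 7.83 and 7.76 in control (log2 difference 0.735, adjusted p = 0.084). Piezo1, the mechanically gated cation channel, read 9.31 and 9.43 against 8.69 and 8.72, with control at 8.92 and 8.93 (0.665, adjusted p = 0.084). In both, control lay between the drugs and outside the range of each. Hmox1, the inducible heme oxygenase, read 10.38 and 10.39 against 9.22 and 9.26, with control at 9.02 and 9.48 (1.145, adjusted p = 0.084). Here the duloxetine arrays lay within the control range. Slc7a3, a cationic amino acid transporter, read 11.23 and 11.25 against 10.45 and 10.47, with control at 10.9 and 10.73 (0.78, adjusted p = 0.0902). Cox6a2, a subunit of cytochrome c oxidase, differed by 0.7 (adjusted p = 0.113), and the neutrophil chemokine Cxcl2 by 1.205 (adjusted p = 0.135).

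The 8 genes of lowest p on the lower side did not pass either. Pclaf, a partner of the replication clamp PCNA, read 6.31 and 6.36 under citalopram, 6.95 and 7.13 under duloxetine, and 7.02 and 7.06 in control (log2 difference −0.705, adjusted p = 0.135). Ccnb2, a mitotic cyclin, read 8.11 and 8.21 against 8.68 and 8.66, with control at 8.81 and 8.73 (−0.51, adjusted p = 0.202). In these cell cycle genes duloxetine and control lay close together. Bgn, the matrix proteoglycan biglycan, differed by −0.7 (adjusted p = 0.188) on its brighter probe set and by −0.325, with overlapping arrays, on its other. Olig1, a transcription factor of the oligodendrocyte lineage, differed by −0.75, Kcnip3, a calcium-binding partner of potassium channels, by −0.59, and Tmem255b by −0.815 (adjusted p = 0.202 for each). E2f8, a repressor of E2F target genes, differed by −0.665 and Oasl2, an interferon-response gene, by −0.575 (adjusted p = 0.214 for both).

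Genes of the integrated stress response shared 1 direction. The response is the programme run by the transcription factor ATF4 when amino acids are short, proteins misfold or mitochondria are impaired; its targets import and make amino acids and charge transfer RNAs. Of 29 tested members, 29 had positive differences (49.4% of all genes did), with a median of 0.36 where that of all genes was 0. None passed the test (lowest adjusted p = 0.0902). An unadjusted p under 0.05 was found for 21 of 29 (72.4%), all as higher, against 3.73% of all genes. Both citalopram arrays lay above both duloxetine arrays for 28 of 29 (96.6%, against 16.4% of all genes), Cebpb being the exception. The median was 0.395 against duloxetine replicate 1 and 0.32 against replicate 2. The list's mean level, each gene centred on its 12-array mean, was 0.14 and 0.161 on the citalopram arrays, −0.264 and −0.268 on the duloxetine arrays, and −0.292 and −0.108 in control.

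Regulators of the response came in at different sizes. Atf4 itself read 9.8 and 9.69 under citalopram against 9.68 and 9.43 under duloxetine (log2 difference 0.19, adjusted p = 0.766). Ddit3, the CHOP factor that acts downstream, read 9.64 and 9.8 against 9.02 and 8.85 (0.785, adjusted p = 0.202). Its control arrays, at 9.63 and 9.53, lay by the citalopram arrays, and both duloxetine arrays were below all of them. Ppp1r15a, whose product GADD34 guides the phosphatase that ends the response, read 8.57 and 8.57 against 7.83 and 7.89, with control at 7.95 and 8.1 (0.71, adjusted p = 0.138). Trib3, a pseudokinase that binds ATF4, differed by 0.34, the stress regulator Nupr1 by 0.715, and Chac1, which degrades glutathione, by 0.625; none passed.

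Transporters and enzymes followed. Slc7a11, which imports cystine for glutathione, read 11.41 and 11.39 under citalopram against 10.58 and 9.97 under duloxetine (1.125, adjusted p = 0.349). Its control arrays, at 9.78 and 10.58, spanned the duloxetine range, and its other probe set differed by 0.695 without overlap. Among the enzymes of serine and folate metabolism, Shmt2 differed by 0.475, Mthfd2 by 0.485, Psat1 by 0.385, Phgdh by 0.36 and Aldh1l2 by 0.45. The transfer RNA synthetases Nars, Wars and Sars differed by 0.215, 0.205 and 0.32. Asns, the asparagine synthetase and a commonly used ATF4 target, differed by 0.12 (95% interval −0.081 to 0.321).

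**Figure D2:**
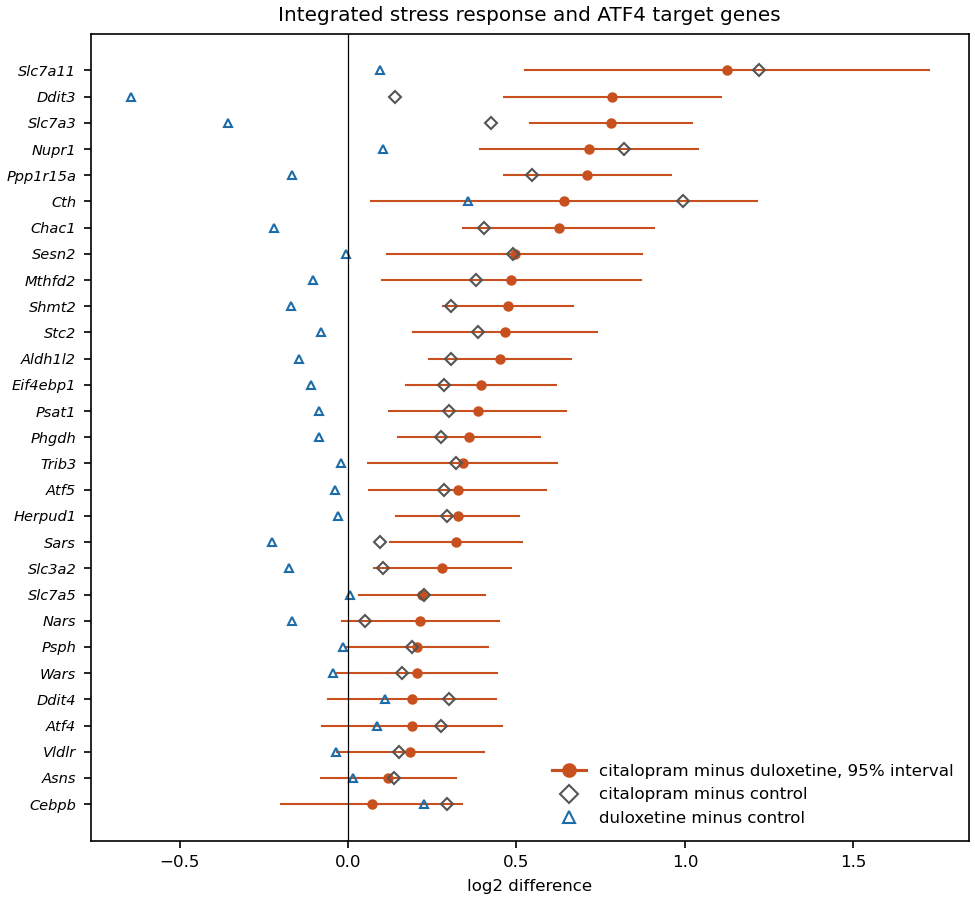
Log2 difference (horizontal axis) for 29 integrated stress response and ATF4 target genes: filled circles with 95% intervals are citalopram minus duloxetine, open diamonds citalopram minus control and open triangles duloxetine minus control, from the same fit. All 29 circles lie above 0, from 0.07 for Cebpb to 1.125 for Slc7a11; the 2 differences from control share the control arrays.

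Relative to control, the median of this list was 0.295 for citalopram and −0.045 for duloxetine. The control mean lay between the drug means in 21 of the 29 genes, and the distance from control was larger for citalopram than for duloxetine in 25 of 29. These values share the control arrays and are given side by side only.

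Of the 29 genes, 22 had a promoter window, and 1 of the 22 held the full CRE, Ppp1r15a (4.55%, against 2.66% of all windows). It is shown for that reason (chr7:45526269-45526518, minus strand, GRCm38.p6).
Ppp1r15a: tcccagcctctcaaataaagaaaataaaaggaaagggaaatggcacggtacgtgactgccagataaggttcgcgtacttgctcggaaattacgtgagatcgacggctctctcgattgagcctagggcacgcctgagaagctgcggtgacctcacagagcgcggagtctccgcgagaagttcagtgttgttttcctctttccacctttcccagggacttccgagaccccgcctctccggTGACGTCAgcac
The capitals are the CRE, which begins 12 bases before the start. The ATF4 composite element TGATGNAAT was in 1 of 22 windows, that of Nupr1 (4.55%, against 0.631% of all), and the shorter TGACG core in 7 of 22 (31.8%, against 26.9%). CCAAT boxes were in 14 of 22 (63.6%, against 38.8%), and the antioxidant response element TGACNNNGC, which can overlap the TGACG core, in 4 of 22 (18.2%, against 13.2%). These matches describe letters in a window and show neither binding nor use.

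NRF2 is the factor that raises antioxidant and glutathione genes under oxidative or electrophilic stress. Of 19 tested members of its list, 15 had positive differences and none passed the test. An unadjusted p under 0.05 was found for 5 (26.3%) as higher and 0 as lower, against 3.73% and 3.01% of all genes. The median was 0.18, but 0.085 against duloxetine replicate 1 and 0.25 against replicate 2. Behind Hmox1 came Srxn1, sulfiredoxin, at 10.28 and 10.3 under citalopram against 9.33 and 9.71 (log2 difference 0.77, adjusted p = 0.331), with control at 8.98 and 9.48. Slc7a11 belongs to both lists. The glutathione synthesis genes Gclm and Gclc differed by 0.34 and 0.26, Txnrd1 by 0.28 and Osgin1 by 0.31. Nqo1, a common readout of NRF2, differed by 0.125 (95% interval −0.117 to 0.367), and Gstm1, Fth1, Cat and Mgst1 had negative differences no larger in size than that of Mgst1, −0.145.

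Of the prostaglandin list, Ptgs2 was the only gene that passed. Of 16 tested members 7 had positive and 9 negative differences, with a median of −0.022 (0.042 against duloxetine replicate 1 and −0.035 against replicate 2). Upstream of the cyclooxygenase, Pla2g4a, the cytosolic phospholipase that releases arachidonic acid, read 6.58 and 6.51 against 6.02 and 6.26 (0.405, adjusted p = 0.593). Pla2g2e, a secreted phospholipase, differed by 0.335 (adjusted p = 0.627). Downstream, the prostaglandin E synthases Ptges, Ptges2 and Ptges3 differed by −0.2, 0.17 and 0.29, and the receptors Ptger3 and Ptger4 by −0.19 and 0.12. None of these passed the test.

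No chemokine or inflammatory cytokine gene passed the test. Of 17 tested genes in this list, 12 had positive differences (median 0.07). Against duloxetine replicate 1 alone 14 of 17 were positive with a median of 0.165, and against replicate 2 alone 9 of 17 with a median of 0.075. Cxcl2, a chemokine that recruits neutrophils, read 8.82 and 8.9 against 7.48 and 7.83 under duloxetine, with control at 7.62 and 7.71. Cxcl1 read 7.75 and 7.86 against 6.88 and 7.14 (log2 difference 0.795), and Lcn2, an acute-phase lipocalin, 7.47 and 7.68 against 6.59 and 7.04 (0.76, adjusted p = 0.256 for both). Cxcl10 differed by 0.73 and Ccl3 by 0.515. Ccl4, the close relative of Ccl3, went the other way, with 6.9 and 6.75 against 7.07 and 7.32 (−0.37, adjusted p = 0.648). Microglia and macrophages can make these chemokines: of 16 tested markers of those cells, 6 had positive differences (median −0.04, which was 0.07 against duloxetine replicate 1 and −0.15 against replicate 2), and their mean level was −0.027 and −0.05 on the citalopram arrays, −0.112 and 0.093 on the duloxetine arrays. Their part in the chemokine values was not tested.

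Immediate early genes are switched on within minutes of neuronal activity or growth factor signals. Of 33 tested members 25 had positive and 7 negative differences, with a median of 0.08 (0.135 against duloxetine replicate 1 and 0.085 against replicate 2); Ier3 passed the test. Npas4, which is tied to calcium entry in neurons, read 7.6 and 7.69 under citalopram and 6.79 and 6.94 under duloxetine, but its control arrays were at 8.35 and 7.29 (0.78, adjusted p = 0.658). Fos read 7.71 and 7.58 against 7.13 and 7.12, with control at 8.45 and 7.5 (0.52, adjusted p = 0.744). For both genes the 2 control arrays differed from each other by more than the drugs did. Egr1 differed by 0.445 (adjusted p = 0.396), the stress-inducible Atf3 by 0.78 (adjusted p = 0.214) and Ier2 by 0.53. Arc, which is brought to active synapses, differed by 0.045 (95% interval −0.16 to 0.25), Egr3 by 0.02 and Nr4a2 by −0.02.

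The ERK feedback list holds phosphatases and Sprouty proteins that damp the growth factor cascade and follow its output. Of 15 tested genes 12 had positive differences (median 0.17, or 0.13 against duloxetine replicate 1 and 0.22 against replicate 2), and 5 of the 15 are also in the list of immediate early genes. Dusp4 read 8.74 and 8.77 under citalopram against 8.38 and 8.25 under duloxetine, with control at 8.79 and 8.59 (0.44, adjusted p = 0.365). Spry4 read 9.32 and 9.25 against 8.92 and 8.88, with control at 9 and 9.12 (0.385, adjusted p = 0.484). Control lay at the citalopram level for Dusp4 and between the drugs for Spry4. Spry1, Spred2 and Etv4 differed by −0.005, 0.035 and 0.055.

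Glial marker genes were on the opposite side. In bulk RNA, fewer cells of a type and less RNA per cell cannot be told apart. Oligodendrocyte lineage markers were negative in 13 of 13 tested genes (median −0.4), and none passed the test. Of the 13, 9 (69.2%) had an unadjusted p under 0.05 as lower, against 3.01% of all genes. Both citalopram arrays lay below both duloxetine arrays for 11 of 13 (84.6%, against 15.1% of all genes). The median was −0.42 against duloxetine replicate 1 and −0.61 against replicate 2. The mean level of the list was −0.085 and −0.121 under citalopram, 0.37 and 0.497 under duloxetine, and −0.021 and 0.344 in control, so the 2 control arrays spanned most of the gap between the drugs.

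Among precursor genes, Gpr17, the receptor of precursors on their way to becoming oligodendrocytes, read 7.13 and 7.3 under citalopram and 8.6 and 8.52 under duloxetine (log2 difference −1.345, adjusted p = 0.256). Its controls were 7.25 and 8.34, 1 at the citalopram level and 1 near that of duloxetine. Pdgfra, the PDGF receptor of precursors, read 8.58 and 8.77 against 9.91 and 9.52 (−1.04, adjusted p = 0.64), with control at 8.88 and 9.9. Olig1 read 10.1 and 10.09 against 10.82 and 10.87, with control at 10.52 and 10.89. Olig2, the partner factor that specifies the lineage, read 9.85 and 9.85 against 10.27 and 10.29 (−0.43, adjusted p = 0.667), with control at 9.69 and 10.2. Sox10 differed by −0.705 (adjusted p = 0.386) and Bcas1, which marks newly forming oligodendrocytes, by −0.585. Genes of the myelin sheath gave smaller differences: Mbp −0.14, Cldn11 −0.26, Cnp −0.34 and Mog −0.385, the arrays of Mog and Cldn11 overlapping.

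Astrocyte markers were negative in 16 of 17 tested genes (median −0.245), and none passed the test. Of the 17, 7 (41.2%) had an unadjusted p under 0.05 as lower, against 3.01% of all genes. The median was −0.205 against duloxetine replicate 1 and −0.225 against replicate 2. Aqp4, the water channel of astrocyte endfeet, read 7.98 and 7.83 under citalopram, 8.71 and 8.35 under duloxetine, and 8.71 and 8.64 in control (log2 difference −0.625, adjusted p = 0.282). Sox9, a factor that gives glia their identity, read 10.06 and 10.12 against 10.37 and 10.42, with control at 10.23 and 10.31 (−0.305, adjusted p = 0.636). Duloxetine and control overlapped for Aqp4, and control lay between the drugs for Sox9. Glul, glutamine synthetase, and Slc1a2, a glutamate transporter, differed by −0.255 and −0.245. Gfap, the intermediate filament, differed by −0.175 (95% interval −0.391 to 0.041), and Slc1a3, a glutamate transporter that radial glia share, by 0.03. Neuron markers had a median of 0.012 (−0.015 against duloxetine replicate 1 and 0.042 against replicate 2), with 11 of 18 positive. An unadjusted p under 0.05 was found for 0 of the 18, against 3.73% of all genes as higher and 3.01% as lower. In a list of this size 0 is near those shares.

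**Figure D3:**
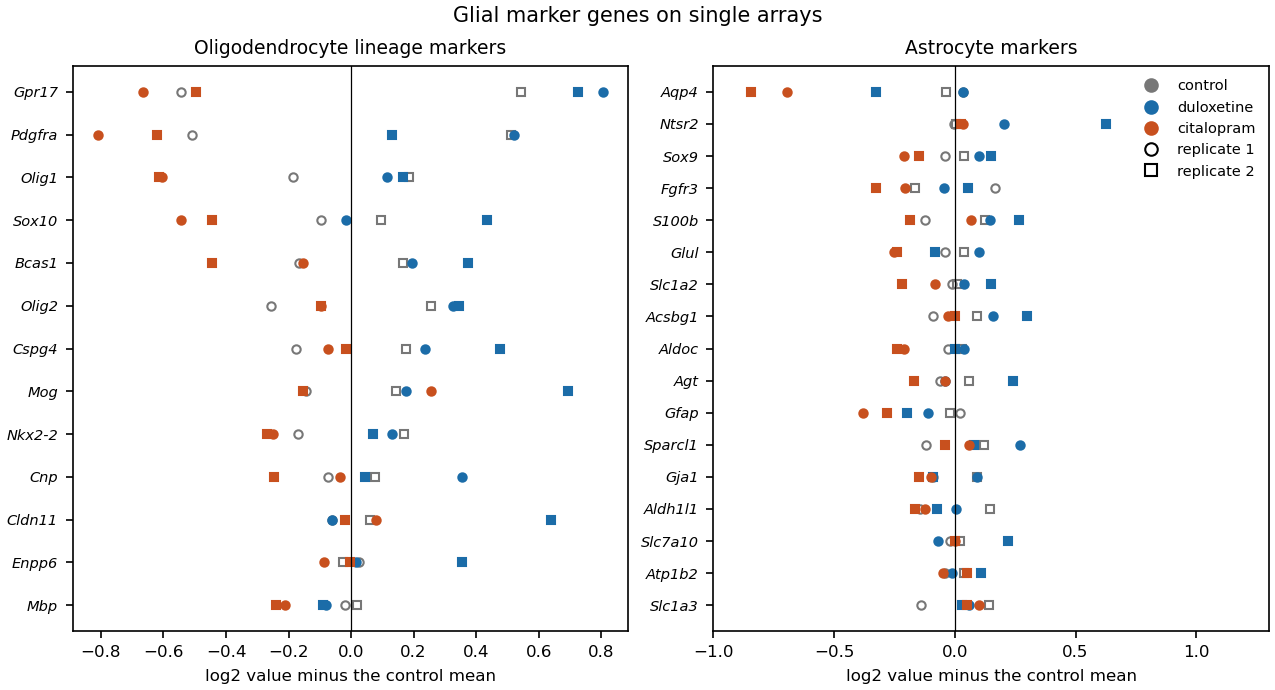
Log2 level minus the mean of the 2 control arrays (horizontal axis) for 13 oligodendrocyte lineage and 17 astrocyte markers on the control (open grey), duloxetine (blue) and citalopram (orange) arrays; circles are replicate 1 and squares replicate 2. The 2 control arrays of Gpr17 and Pdgfra lie far apart, while the citalopram arrays of Aqp4 and Olig1 lie below all duloxetine and control arrays.

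Notch and BMP signals keep progenitors undifferentiated and favour glial fates, and Id and Hes genes are their targets. Of 33 tested genes 28 had negative differences (median −0.115), and none passed the test. An unadjusted p under 0.05 was found for 9 (27.3%), all 9 as lower, against 3.01% of all genes. The median was −0.145 against duloxetine replicate 1 and −0.09 against replicate 2. Ligands and modifiers among them were Dll3 (−0.475), Lfng (−0.5), Bmp4 (−0.385), Bmp7 (−0.45) and the BMP antagonist Grem1 (−0.345). The Notch target Hes5 read 9.08 and 8.93 under citalopram, 9.73 and 9.48 under duloxetine, and 9.72 and 9.76 in control (−0.6, adjusted p = 0.227). Its other probe set differed by −0.335, also without overlap. Tmem100, a target of BMP signalling, differed by −0.485, while Hes1 differed by −0.16, Hey1 by −0.025 and Id1, Id2, Id3 and Id4 by 0.015, −0.045, −0.085 and −0.075. Glial markers had negative differences on the same arrays, and their part in these values was not tested.

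Of 17 tested radial glia and progenitor markers, 12 had negative differences (median −0.085), with Hes5 lowest, and none passed the test. Both citalopram arrays lay below both duloxetine arrays for 7 of 17 (41.2%, against 15.1% of all genes). They lay above both for 2, Nes and Tnc (11.8%, against 16.4% of all genes). The median was −0.1 against duloxetine replicate 1 and −0.015 against replicate 2. Nes, the intermediate filament of progenitors, read 8.92 and 8.98 against 8.53 and 8.21, with control at 8.52 and 8.65 (0.58, adjusted p = 0.593). Tnc, a matrix protein of progenitors and reactive glia, read 11.2 and 11.28 against 10.81 and 10.79, with control at 10.86 and 10.98 (0.44, adjusted p = 0.396). Both were above every duloxetine and control array on both citalopram arrays.

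Mitosis genes were lower on average, and the size depended on the duloxetine array. Of 29 tested genes 28 had negative differences (median −0.225), and none passed the test. An unadjusted p under 0.05 was found for 9 (31%), all as lower, against 3.01% of all genes. Against duloxetine replicate 1, 29 of 29 were negative with a median of −0.435. Against replicate 2, 18 of 29 were negative with a median of −0.055. The mean level of the list was −0.053 and −0.088 on the citalopram arrays, 0.407 and −0.015 on the duloxetine arrays and 0.452 and 0.404 in control. Duloxetine replicate 1 thus lay with control and replicate 2 near citalopram, and the cause was not tested. Both citalopram arrays lay below both duloxetine arrays for 14 of 29 (48.3%, against 15.1% of all genes), Ccnb2, Top2a and Ccna2 among them. Top2a, the topoisomerase of dividing cells, read 7.54 and 7.69 against 8.39 and 7.95 (log2 difference −0.555), and the cyclin gene Ccna2 read 8.77 and 8.79 against 9.6 and 9.09 (−0.565, adjusted p = 0.467). Mki67, the proliferation marker, read 8.29 and 8.25 against 8.89 and 8.49, with control at 8.77 and 8.71 (−0.42, adjusted p = 0.63). For Kif11, Plk1 and Prc1 duloxetine replicate 2 lay below both citalopram arrays, and for these the arrays overlapped.

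Of 29 tested DNA replication genes 21 had negative differences (median −0.095), and none passed the test. An unadjusted p under 0.05 was found for 3 (10.3%), all as lower, against 3.01% of all genes. The median was −0.18 against duloxetine replicate 1 and 0.01 against replicate 2. Both citalopram arrays lay below both duloxetine arrays for 9 of 29 (31%, against 15.1% of all genes). Beside Pclaf and E2f8 these were Uhrf1 (−0.26), Mcm5 (−0.245), Tk1 (−0.215), Tyms (−0.21), E2f1 (−0.185), Dut (−0.115) and Cdc45 (−0.055). The arrays overlapped for the other 20, among them the clamp gene Pcna (−0.045), Mcm2 (0.09) and Rrm2 (−0.135).

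Mitotic genes are known for CCAAT boxes and the CHR element in their promoters. Of the 25 mitosis genes with a window, 20 held a CCAAT box (80%, against 38.8% of all) and 10 held the CHR (40%, against 13.4%). Ccnb2 is shown as the mitosis gene of lowest p (chr9:70421555-70421804, minus strand, GRCm38.p6).
Ccnb2: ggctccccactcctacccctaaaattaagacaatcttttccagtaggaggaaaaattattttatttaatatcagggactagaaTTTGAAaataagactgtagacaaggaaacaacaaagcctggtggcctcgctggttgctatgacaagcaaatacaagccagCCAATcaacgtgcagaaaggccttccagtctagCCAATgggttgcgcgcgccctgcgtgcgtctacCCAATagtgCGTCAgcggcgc
The capitals are CCAAT boxes that begin 87, 54 and 21 bases before the start, a CHR at 167 bases and, at 12 bases, the TGACG core read on the other strand. Across all genes at an unadjusted p under 0.05, the CHR was in 17.3% of the 399 windows on the lower side and in 13.8% of the 465 on the higher side. The TGACG core was in 17% on the lower side and 34.8% on the higher side, against 26.9% of all windows. The base composition of these windows was not compared.

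The targets of the drugs themselves gave no call. Slc6a4, the serotonin transporter, read 6.38 and 6.21 under citalopram, 6.34 and 6.35 under duloxetine and 6.85 and 6.37 in control (log2 difference −0.05, 95% interval −0.431 to 0.331). Slc6a2, the noradrenaline transporter, read 6.3 and 6.3 against 6.2 and 6.76, with control at 6.01 and 6.19 (−0.18, 95% interval −0.603 to 0.243). The arrays overlapped for both. These levels are near the filter of 5.72. Slc18a2, which loads monoamines into vesicles, differed by −0.035, and Maoa, which degrades them, by 0.145; without duloxetine replicate 2 both differences took the other sign.

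Of 22 tested serotonin system genes, 4 had positive and 18 negative differences (median −0.058). An unadjusted p under 0.05 was found for 0 of the 22, against 3.73% of all genes as higher and 3.01% as lower. Against duloxetine replicate 1 alone 11 were positive and 11 negative (median −0.015), and against replicate 2, the array that stands apart, 7 and 15 (median −0.07). Of the receptors, Htr1a differed by −0.055, Htr1b by −0.02, Htr2a by −0.09, Htr2c by −0.06 and Htr3a by −0.03. Htr5b differed by −0.325 (95% interval −0.702 to 0.052), but by −0.095 against duloxetine replicate 1 alone, and Htr6 by 0.18, but by 0.03. Htr7 differed by 0.175 (95% interval −0.047 to 0.397), and by 0.125 against replicate 1. The rate-limiting synthesis genes Tph1 and Tph2 differed by −0.125 and −0.18, and by 0.005 and −0.055 against replicate 1. None of the 6 tested noradrenaline genes passed (median −0.195, or −0.035 against duloxetine replicate 1 and −0.305 against replicate 2). The adrenergic receptor gene Adra2c read 6.78 and 6.76 against 7.03 and 7.06 (−0.275, adjusted p = 0.744), Dbh, which makes noradrenaline, differed by −0.32 but by −0.105 against replicate 1 alone, and Adra1b by 0.115. A missing call does not show that the drugs act alike on these genes, since the intervals allow differences of the sizes given. Adra2a and Adrb1 were not analysed here.

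Neuronal gene groups gave medians close to 0. Glutamate receptor genes had a median of 0.082 (14 of 20 positive). Against duloxetine replicate 1 alone it was −0.008 (10 of 20 positive), and against replicate 2, the array that stands apart, 0.145 (17 of 20). GABA genes had a median of 0.037 (10 of 18 positive), which was 0.007 against replicate 1 and 0.112 against replicate 2. Synaptic vesicle and release genes had a median of 0 (11 of 24 positive), with 0.012 and 0.038 against the single arrays. No member of these passed the test. Gad1, which makes GABA, read 8.04 and 8.01 under citalopram against 7.81 and 7.57 (0.335, adjusted p = 0.667), and Unc13a, a priming factor of synaptic vesicles, differed by 0.195. Among neuropeptide genes, Ostn, which encodes osteocrin, read 6.76 and 7 against 5.83 and 6.08, with control at 5.62 and 6.18 (0.925, adjusted p = 0.202). Sst, somatostatin, read 12.37 and 12.47 against 11.86 and 12.15, with control at 12.25 and 12.21 (0.415, adjusted p = 0.421). Duloxetine and control overlapped for Ostn, whereas for Sst control lay between the drugs. Axon guidance genes had a median of 0.06, which was −0.015 against duloxetine replicate 1 and 0.11 against replicate 2. Excitatory lineage markers had a median of −0.01 (−0.028 and 0.027), with Bcl11b, a factor of deep-layer neurons, at −0.2 and Cux2, one of upper-layer neurons, at 0.315.

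Trophic factor genes were mixed, with 11 of 30 positive and a median of −0.057, which was 0.025 against duloxetine replicate 1 and −0.08 against replicate 2. Vegfa, the vascular growth factor that also acts on neurons, read 10.71 and 10.78 under citalopram, 10.42 and 10.39 under duloxetine, and 10.29 and 10.37 in control (0.34, adjusted p = 0.359). Vgf, a secreted peptide precursor that trophic signals induce, differed by 0.36, and Fgf1 by −0.38. Ntrk2, the BDNF receptor, differed by 0.075 (95% interval −0.133 to 0.283). The list of endoplasmic reticulum chaperones and heat shock genes had 17 of 23 positive and a median of 0.115. That median was −0.025 against duloxetine replicate 1 and 0.245 against replicate 2. In this list the endoplasmic reticulum chaperones Hyou1 and Hspa5 differed by 0.365 and 0.29. Slc2a1, the glucose transporter, differed by 0.51 on its brighter probe set and by −0.05, overlapping, on its other.

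**Figure D4:**
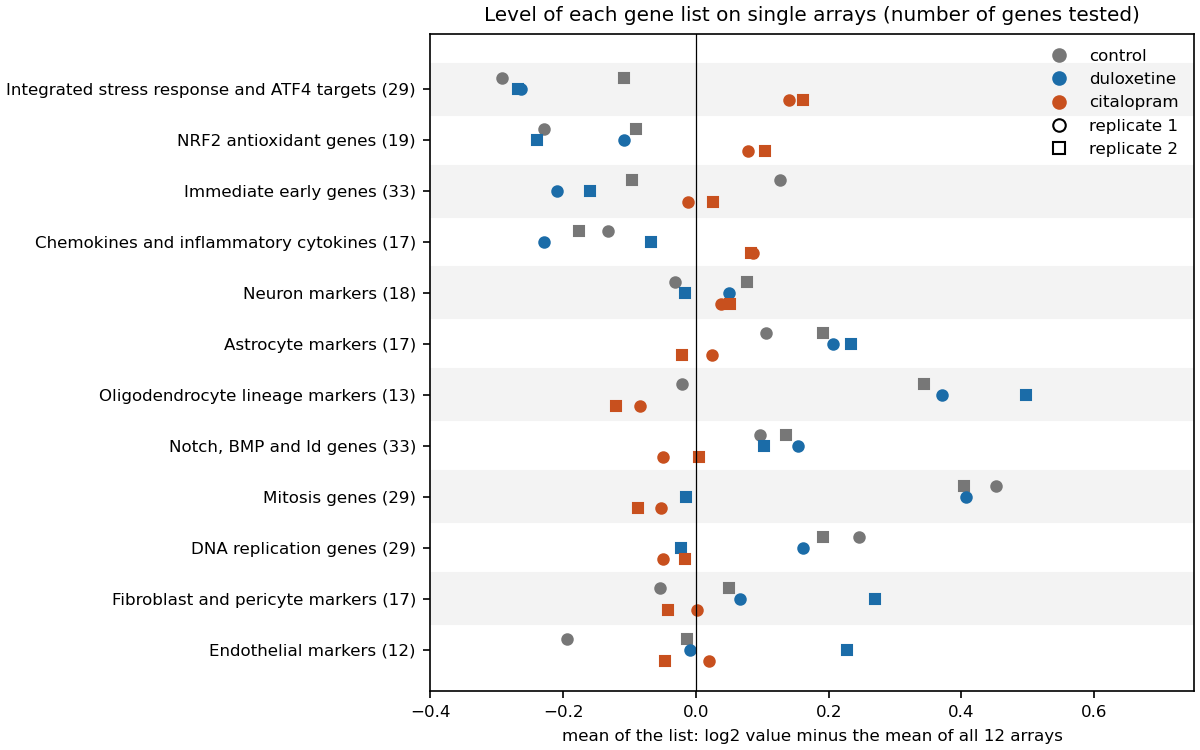
Mean level of 12 gene lists on single arrays (horizontal axis: log2 value minus the 12-array mean of each gene, averaged over the tested genes, whose number is in brackets) for control (grey), duloxetine (blue) and citalopram (orange); circles are replicate 1 and squares replicate 2. The citalopram and duloxetine arrays overlap in the neuron, DNA replication and endothelial lists and lie apart in all the others shown. In the mitosis list duloxetine replicate 1 (0.407) lies with control and replicate 2 (−0.015) does not.

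A difference of at least 1 log2 unit was seen for 9 named genes, 7 higher and 2 lower; this size was chosen after the values were seen. They were Ptgs2, Cxcl2, Hmox1, Slc7a11, Abcc4, Car6 and Zfp119a on the higher side and Gpr17 and Pdgfra on the lower. Abcc4, an exporter of prostaglandins and cyclic nucleotides, read 8.42 and 8.5 under citalopram against 7.58 and 7.31, with control at 7.16 and 7.74 (1.015, adjusted p = 0.202). Car6, a secreted carbonic anhydrase, read 7.35 and 7.4 against 6.34 and 5.85, with control at 6.04 and 6.73 (1.28, adjusted p = 0.202). Against duloxetine replicate 1 alone 6 of the 9 reached 1 unit. Zfp119a, a zinc finger gene, differed by 0.115 from replicate 1 and by 2.455 from replicate 2.

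**Figure D5:**
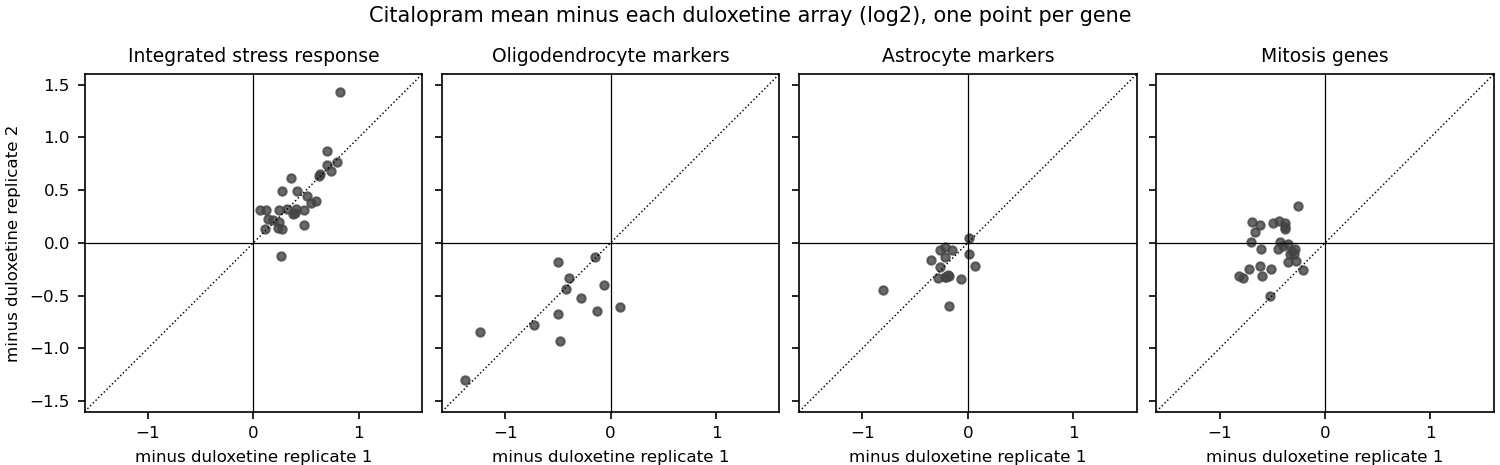
Citalopram mean minus duloxetine replicate 1 (horizontal axis) against citalopram mean minus duloxetine replicate 2 (vertical axis), log2, with 1 point per gene in 4 gene lists and a dotted line where both are equal. Stress response genes are positive against both arrays except Cebpb, oligodendrocyte genes are negative against both except Cldn11 and astrocyte genes except Slc1a3, Slc7a10 and Atp1b2, and mitosis genes are negative against replicate 1 and spread around 0 against replicate 2.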

How the data were processed

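The authors deposited log2 values for 41345 probe sets on 12 arrays. Per the submitters' processing notes, they came from Affymetrix Expression Console with the RMA method, which is meant to bring arrays to a common distribution. The version, settings and build of that step: not given in the sources used here. The deposited values did not share 1 distribution. Lower quartile, median and upper quartile were 5.5, 6.75 and 8.21 on duloxetine replicate 2 and 5.57, 6.77 and 8.2 on mirtazapine replicate 2. On duloxetine replicate 1 they were 5.37, 6.6 and 8.33. Array signals are not counts and have no depth. Platform annotation gave 1 gene symbol to 23521 probe sets, several to 1814 and none to 16010 (RefSeq held the gene number of 99.2% of the first kind, with 0 differing symbols).

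A gene was its probe set of highest mean, kept at or above the 30th percentile (5.72). All 12 arrays entered a model of 6 group means (limma 3.58.1 under R 4.3.3, functions lmFit and eBayes, 6 residual and 3.86 prior degrees of freedom). The two-sided contrast was adjusted by Benjamini-Hochberg over 17467 genes and called under 0.05. The fit was tested on simulated data. Genes named are the 8 of lowest p in each direction (12 where called), a fixed set of target, stress, activity and cell type genes, and of each list the called members (at most 6) or else the 2 of lowest p, without predicted genes, small RNAs and olfactory receptors. Further list members were picked for their role or values. The 36 lists, the rule and the comparison were chosen with earlier results of these data known. One gene of the fixed set is not reported here.

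Motifs were searched on both strands of the 250 bases before each start (RefSeq, GRCm38.p6; 13480 tested genes had one): CRE TGACGTCA, its core TGACG, antioxidant response element TGACNNNGC, ATF4 composite TGATGNAAT, E-box CACGTG (a palindrome, in 9.03% of windows), CCAAT and CHR TTTGAA. Alternatives concerned the filter (none, or the 50th percentile), the probe sets (all), the variance prior (trend and robust), array weights, a repeated quantile normalization, the replicate number as a block, the arrays fitted (only the 4 compared, each dropped singly, both that stand apart dropped) and a minimum difference of 0.5. Blocks on the 4 arrays alone, straight and crossed, were added once the data had been seen. The plots used matplotlib 3.10.9.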

Additional observations from a re-analysis of the deposited data

How the results depend on the processing

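The main count was 2 called genes. It was also 2 with no filter, with every probe set, with a second quantile normalization, with a minimum difference of 0.5 and with the replicate number as a block. It was 4 with a 50th percentile filter and 7 with trend and robust eBayes. It was 0 with array weights, with only the 4 arrays compared, and without both arrays that stand apart (1577 genes at an unadjusted p under 0.05, lowest limma adjusted p = 0.107), and the cause was not tested. Leaving out each array in turn gave 0 to 442. A group left with 1 array takes its spread from the remaining groups. The count was 442 without duloxetine replicate 1, and 4 without either control array.

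Whether the replicate numbers pair the arrays cannot be told from these values, since duloxetine replicate 2 stands apart. Deviations of same-numbered citalopram and duloxetine arrays correlated at −0.252. Over 15 pairs of groups the correlation ran from −0.438 to 0.712, with 4 of them over 0.1. On the 4 arrays alone, the replicate block gave 0 calls and the crossed replicate block 0 (309 and 714 genes at an unadjusted p under 0.05).

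Named genes that took the other sign were small and uncalled. Both without duloxetine replicate 2 and without both arrays that stand apart, Slc6a2 gave 0.1, Slc18a2 0.035, Maoa −0.155, Htr1b 0.015 and Htr3a 0.045. A second quantile normalization gave Slc18a2 0.011, Htr3a 0.002, Arc −0.015 and Tubb3 −0.053. With each array left out in turn, Slc6a4 ranged from −0.135 to 0.035, Slc6a2 from −0.46 to 0.1, Slc18a2 from −0.16 to 0.09, Maoa from −0.155 to 0.445 and Arc from −0.045 to 0.135. Over the same fits Htr1a ranged from −0.15 to 0.04, Htr1b from −0.055 to 0.015, Htr2a from −0.27 to 0.09 and Htr3a from −0.105 to 0.045. The list medians kept their sign over 21 alternatives for the stress response (0.297 to 0.395), oligodendrocyte (−0.61 to −0.393), astrocyte (−0.25 to −0.175) and mitosis genes (−0.435 to −0.055). Of these alternatives, those that changed only the variance prior or the arrays outside the contrast could not move a median. Medians of other lists changed sign. Among those lists were the endoplasmic reticulum chaperone and heat shock (−0.025 to 0.245), DNA replication (−0.18 to 0.01) and glutamate receptor genes (−0.008 to 0.145). Axon guidance (−0.015 to 0.11), trophic factor (−0.08 to 0.025) and interferon response genes (−0.125 to 0.115) were others. Genes near the filter of 5.72, Slc6a4 and Slc6a2 among them, have low signal, which limits what can be seen in them.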

Other observations

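Markers of vessel-associated cells differed between the 2 duloxetine arrays, but these are dim genes, and dim genes in general were brighter on replicate 2. Of 17 tested fibroblast and pericyte markers 13 had negative differences, citalopram minus duloxetine (median −0.255), which was −0.095 against duloxetine replicate 1 and −0.38 against replicate 2. Acta2, the smooth muscle actin, read 7.35 and 7.27 under citalopram and 7.54 and 8.12 under duloxetine (−0.52, limma adjusted p = 0.627). Fn1, fibronectin, went the other way at 10.46 and 10.53 against 10.22 and 10.21, with control at 10.09 and 10.17 (0.28, adjusted p = 0.62). Endothelial markers were negative in 11 of 12 (median −0.127), with a median of −0.002 against duloxetine replicate 1 and −0.23 against replicate 2. The median level was 6.56 for the endothelial list and 7 for the fibroblast and pericyte list. Among all genes at levels of 5.72 to 6.72 the medians were 0.005 and −0.265, near the endothelial values. At levels of 6.72 to 7.97 they were −0.01 and −0.055. Whether the marker values go beyond this trait of the array was not tested. None of these genes passed the test.

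Among microglia and macrophage markers, Cd68, a lysosomal protein of phagocytes, read 8.56 and 8.54 under citalopram and 8.11 and 8.07 under duloxetine, with control at 8.52 and 8.1 (0.46, adjusted p = 0.448), while Csf1r, the receptor these cells depend on, differed by −0.33. Of the cell death genes, Hrk, a neuronal activator of apoptosis, read 9.45 and 9.52 against 9.16 and 8.92, with control at 9.34 and 9.32 (0.445, adjusted p = 0.427). Interferon response genes had 7 of 17 positive and a median of −0.095, which was −0.01 against duloxetine replicate 1 and −0.12 against replicate 2, and took the other sign, 0.115, with the 50th percentile filter. Oxidative phosphorylation genes had a median of 0.025, which was −0.055 against duloxetine replicate 1 and 0.1 against replicate 2.

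Apart from named genes, 7 predicted genes and small RNAs differed by at least 1 log2 unit, and 7 of 7 were higher under citalopram. Against duloxetine replicate 1 alone 0 of the 7 reached 1 unit, and against replicate 2 alone 7 of 7 did. Snord58b, a small nucleolar RNA, read 5.83 and 6.15 under citalopram and 5.21 and 3.67 under duloxetine.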
